A study of Mus musculus with 12 samples.

Results

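Genes that regulate or mark beige adipocytes were followed in cultured mouse adipocytes of 3 PPARγ genotypes. They are a fixed list of symbols, drawn up with earlier results of these libraries known and with no threshold on a measured value, and all 10 of them were found among the 55573 genes of the count table. The transcriptional regulators were Prdm16, Ebf2, Zfp516 and Tbx1, the coactivators were Ppargc1a and Ppargc1b, and the remaining members were the channels Otop1 and Kcnk3, the enzyme Dio2 and the surface marker Tmem26.

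Beige adipocytes are thermogenic fat cells that arise within white fat depots, in subcutaneous fat above all, and switch on mitochondrial and thermogenic genes shared with brown fat. PPARγ is the nuclear receptor without which no adipocyte forms, and beige gene expression depends on cofactors that dock on it, PRDM16 and PGC-1α among them. EBF2 and ZFP516 are DNA-binding factors that help select brown and beige genes, whereas DIO2 supplies the cell with active thyroid hormone.

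RNA-seq was made of adipocytes grown from SVF, the progenitor-rich stromal vascular fraction obtained by digesting subcutaneous fat and discarding the mature fat cells. WT mice carried unmutated PPARγ, TA mice the T166A allele, in which alanine cannot be phosphorylated, and TD mice the T166D allele, in which aspartate stands for a permanently phosphorylated threonine. All were on the C57BL/6 background by the labels, and the methods name C57BL/6 J mice for the zygotes and crosses. According to the study's methods, the alleles were CRISPR-Cas9 knock-ins present in every cell of the body, homozygotes were bred from heterozygous parents, and the WT controls were their littermates. Each genotype had 4 libraries. All of the cultures shared 1 protocol, with 850 nM insulin and 1 nM triiodothyronine throughout, IBMX, dexamethasone and indomethacin until day 4, and harvest on day 8. The sources used here give neither the age of the donors nor whether the 4 libraries of a genotype came from separate mice or cultures, so the p-values measure only the spread between these libraries.

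Libraries held between 16553324 and 20324286 counts, and the shallowest WT library, at 18823619 counts, was deeper than the deepest mutant library, at 18357864. All 12 adipocyte markers listed had at least 100 counts in every library. Ucp1, the uncoupling protein that defines active beige and brown fat, had 0 to 5 counts per library in WT and 0 or 1 in TA and in TD. Cidea, a lipid droplet protein of brown fat, had 4 to 16 counts in WT, 0 to 10 in TA and 0 to 3 in TD. The cells were therefore adipocytes by their markers, with the defining beige marker at or near 0 in all of the genotypes. Pparg itself had 6658 to 7189 counts in WT, 5789 to 7045 in TA and 3584 to 4772 in TD.

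The promoter table held no entry for Kcnk3, Ppargc1b, Ebf2 and Zfp516. Of the members it held, 3 promoters are printed, those of Otop1 and Ppargc1a because both genes rose in TA and that of Dio2 because it carried the only full cyclic AMP response element found. Each is a window of 300 bases, most of them before the transcription start that RefSeq gives, written 5′ to 3′ on the gene's strand. They are RefSeq sequences on GRCm38.p6, whose starts for Otop1 and Dio2 differ from the GENCODE gene bounds given below. The Otop1 window lies inside the GENCODE gene, 1 transcript of which starts further upstream, and the Dio2 window lies upstream of the GENCODE gene. Capitals mark the full element TGACGTCA in Dio2 and the half-site TGACG, read on the other strand as CGTCA, in Ppargc1a. The Otop1 promoter lies at chr5:38277154-38277453 on the plus strand, that of Dio2 at chr12:90738989-90739288 on the minus strand, and that of Ppargc1a at chr5:51567676-51567975 on the minus strand.
Otop1 promoter: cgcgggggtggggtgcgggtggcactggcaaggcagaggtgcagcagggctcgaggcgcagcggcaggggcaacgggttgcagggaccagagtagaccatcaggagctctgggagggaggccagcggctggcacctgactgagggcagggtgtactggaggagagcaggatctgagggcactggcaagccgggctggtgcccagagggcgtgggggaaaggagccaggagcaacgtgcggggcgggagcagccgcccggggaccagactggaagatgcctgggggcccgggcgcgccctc
Dio2 promoter: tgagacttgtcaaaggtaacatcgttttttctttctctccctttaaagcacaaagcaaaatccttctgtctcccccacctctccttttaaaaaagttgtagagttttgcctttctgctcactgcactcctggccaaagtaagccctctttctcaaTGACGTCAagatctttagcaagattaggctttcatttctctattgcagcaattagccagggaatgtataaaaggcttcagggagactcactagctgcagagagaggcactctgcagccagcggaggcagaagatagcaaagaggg
Ppargc1a promoter: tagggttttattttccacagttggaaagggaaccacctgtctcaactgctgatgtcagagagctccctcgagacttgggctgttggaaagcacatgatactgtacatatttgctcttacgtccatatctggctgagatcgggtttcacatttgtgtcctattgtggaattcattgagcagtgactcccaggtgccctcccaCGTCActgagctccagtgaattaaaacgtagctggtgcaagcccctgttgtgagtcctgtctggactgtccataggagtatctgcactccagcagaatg
The strings searched on both strands were the PPAR half-site AGGTCA, its direct repeat DR1 with any single base between the copies, the element TGACGTCA, its half-site TGACG, which it contains on both strands, and the EBF palindrome. Promoters of 6 of the 10 members were in the table, 7 in all with a second one for Tbx1. Dio2 held the full element once, with its first base 95 bases before the start, and 1.79% of the 32851 promoters in the table held it. The half-site stood 49 bases before the start of Ppargc1a and once in each Tbx1 promoter, and 20.8% of all promoters held it. None of the strings was found in the windows of Otop1, Prdm16 and Tmem26. AGGTCA, present in 16.3% of all promoters, the direct repeat, in 0.0396%, and the EBF string, in 0.904%, were in none of the 7 windows. The Otop1 window had 71.7% G and C, against 44.7% for Dio2, 48.7% for Ppargc1a and a median of 52.7% over all promoters.

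Members differed in level by orders of magnitude. Levels are given in CPM, each count over its library's TMM-normalized total, and for comparison between genes as CPM per kilobase of annotated exon. Within WT, Kcnk3 had the highest level per kilobase, 20.8 ± 2.83 (SD, n = 4), followed by Ebf2 at 9.21 ± 0.405 and Zfp516 at 7.19 ± 0.710. Ppargc1b at 3.93, Tbx1 at 2.05, Ppargc1a at 1.71, Prdm16 at 1.25 and Dio2 at 0.974 CPM per kilobase came next. Tmem26, at 0.114, and Otop1, at 0.0036, were lowest. Within TA the order changed at the top, with Ebf2 at 7.21, Zfp516 at 6.87 and Kcnk3 at 6.18 ± 2.62 CPM per kilobase, and these 3 lay within the spread of Kcnk3.

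**Figure D1:**
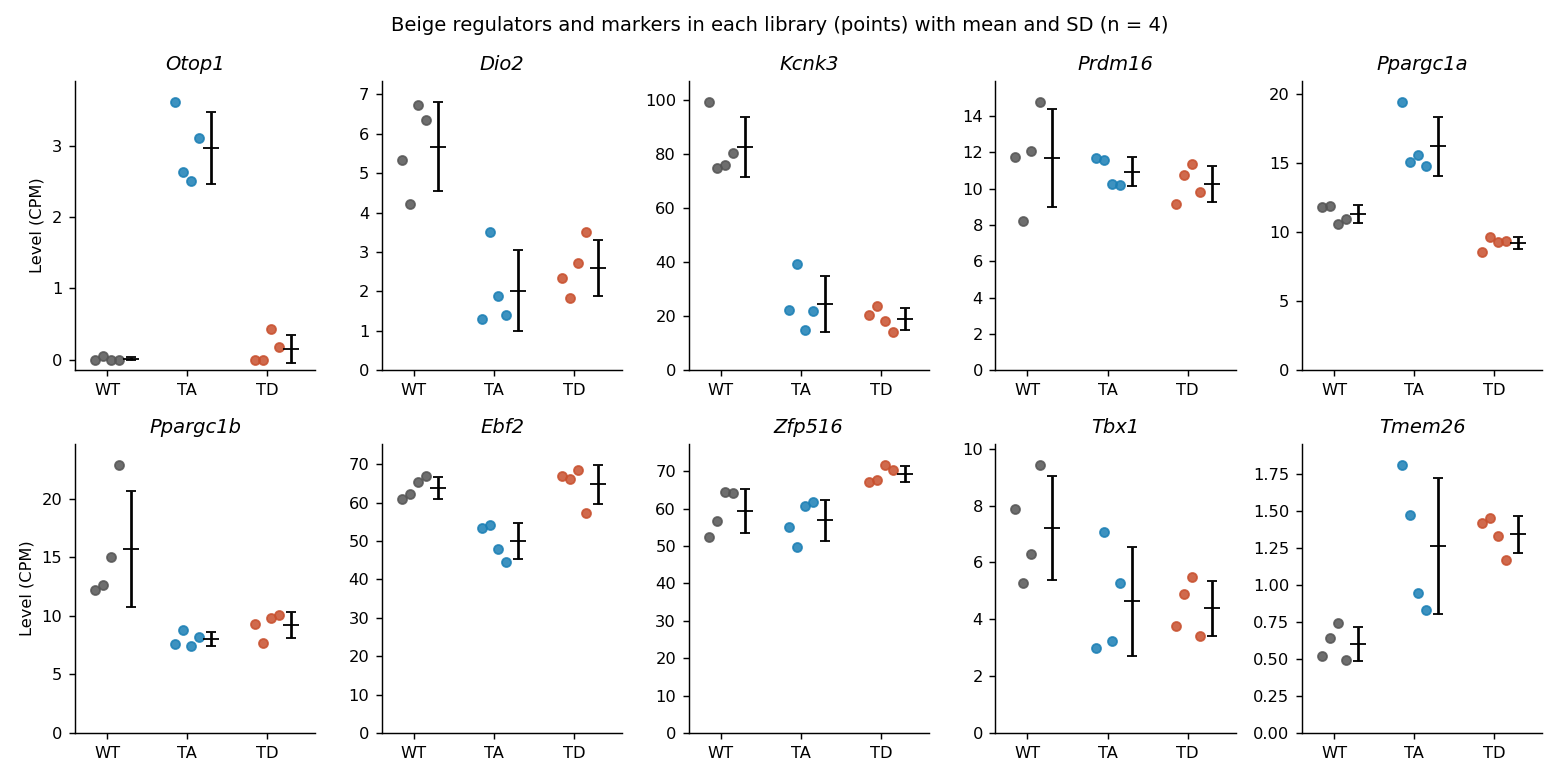
Level of the 10 genes in CPM (vertical axes, one scale per gene) in each of the 4 WT, 4 TA and 4 TD libraries (points), with mean and SD beside them. Otop1 stood apart in TA, Kcnk3 and Dio2 were high in WT and low in both mutants, and the Prdm16 libraries of the 3 genotypes overlapped.

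Beige markers and effectors came apart in the mutants. Both mutants had less Kcnk3 and Dio2 and more Tmem26 than WT, although the Tmem26 call in TA held in only 5 of 20 alternative settings. Otop1 exceeded 8 counts per library in TA and in no other genotype. Genotypes were compared by edgeR's quasi-likelihood test, and a gene is called where its Benjamini-Hochberg adjusted p over 15117 tested genes was under 0.05. In TD against WT, 5 of the 10 members were called, 1 higher and 4 lower, when 29.2% of all genes tested were called, 15.1% of them higher and 14.2% lower. For TA against WT 7 members were called, 3 up and 4 down, with 11.1% of all genes called, 6.72% higher and 4.41% lower. Between TD and TA 4 members were called, 2 higher and 2 lower in TD, with 16.7% of all genes called, 7.33% higher and 9.37% lower. Otop1 and Tmem26 entered the test through the mutants, where they were higher, so their calls add nothing to these counts as evidence about the group. The comparisons of TD and of TA with WT share the same 4 WT libraries.

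Otop1 encodes a proton channel, known from the otolith organs of the inner ear and also found in brown fat. It lies on chromosome 5 from 38275972 to 38304217 on the plus strand, and no other annotated gene overlaps it. The study's own primer pair for it, shown because each primer occurs exactly in no annotated gene other than Otop1, frames 150 bases of coding sequence in exons 2 and 3 of 8.
Otop1 forward primer: acctgctgtgcgttctaacc
Otop1 reverse primer: cgaacaacgtgatgcttccg
In TA its counts were 62, 43, 45 and 56, which is 3.63, 2.64, 2.50 and 3.11 CPM. In WT 1 library had 1 count and the other 3 had 0. In TD the counts were 0, 0, 8 and 3. Every TA library thus lay far above every other library, and TD overlapped WT at 0. With 206 counts in TA against 1 in WT the depth-scaled ratio was 231, with a 95% interval from 41.1 to 9180 that covers counting error only, and the adjusted p was 2.07e-05. Against TD, with 11 counts, TA was 19.5-fold higher (95% counting interval 10.6 to 39.6), with an adjusted p of 0.000173. The 11 TD counts came from TD replicates 3 and 4, which also had the highest summed skeletal muscle markers, and TD against WT did not pass at an adjusted p of 0.0718 (ratio 11.9, 95% counting interval 1.73 to 512), although 5 of 19 alternative settings called it, with adjusted p from 0.0196 upward. Without those 2 libraries TD had no Otop1 count. The same 2 also had the highest preadipocyte and fibroblast sums of TD (22715 and 24809 CPM) and the lowest adipocyte sums (12605 and 11772 CPM). The part of muscle RNA, or of these other cell types, in the TD counts was not tested.

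Kcnk3 encodes TASK-1, a two-pore potassium channel that sets the resting membrane potential. It lies on chromosome 5 from 30588170 to 30625271 on the plus strand. WT libraries had 98.99, 74.7, 76.0 and 80.3 CPM. TA libraries had 22.2, 39.4, 14.97 and 21.7 CPM. TD libraries had 20.3, 23.8, 18.1 and 14.1 CPM. The lowest WT library was well above the highest mutant library, TA replicate 2, and TA and TD overlapped. Kcnk3 fell by 2.11 on the log2 scale in TD against WT (SE 0.218, adjusted p = 3.34e-05), that is 4.32-fold, and by 1.75 in TA against WT (SE 0.214, adjusted p = 5.85e-05), that is 3.37-fold. The fall in TD ranked 15 among all fitted falls of that comparison. TD and TA differed by -0.36 (95% interval -0.79 to 0.073, adjusted p = 0.286), so a difference of up to 0.79 on the log2 scale remains within the interval. Of 21 alternative settings 1 called it, the fit with no filter on low counts (-0.35, adjusted p = 0.00792). An antisense transcript, Gm9899, shares 229 exon bases with Kcnk3. Gm9899 had a mean of 23.1 counts and Kcnk3 one of 789.3. The part of antisense reads in the Kcnk3 counts was not tested.

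Dio2 encodes the type 2 deiodinase, which converts thyroxine into triiodothyronine inside the cell. The gene lies on chromosome 12 from 90724552 to 90738438 on the minus strand, and the window printed above lies beyond its annotated start. WT libraries had 5.34, 4.22, 6.74 and 6.36 CPM. The TA values were 1.29, 3.51, 1.89 and 1.39 CPM. The TD values were 2.33, 1.83, 2.71 and 3.52 CPM. All 8 mutant libraries lay below all 4 WT libraries, and the mutants overlapped each other. Dio2 fell by 1.12 on the log2 scale in TD against WT (SE 0.284, adjusted p = 0.00759) and by 1.49 in TA against WT (SE 0.292, adjusted p = 0.00323). TD was 0.37 above TA, with a 95% interval from -0.23 to 0.96 and an adjusted p of 0.439. As in the case of Kcnk3, TA replicate 2 was the highest of its genotype, and it also had the highest summed adipocyte markers (23885 CPM) and muscle markers (90.9 CPM) among the TA libraries.

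Tmem26 encodes a transmembrane protein used as a surface marker of beige cells. It lies on chromosome 10 from 68723646 to 68782650 on the plus strand. Counts were 10, 13, 15 and 9 in WT, 31, 24, 17 and 15 in TA, and 25, 27, 25 and 20 in TD. In CPM, every mutant library lay above every WT library, with 0.493 to 0.743 in WT, 0.833 to 1.81 in TA and 1.17 to 1.46 in TD. Tmem26 rose by 1.15 on the log2 scale in TD against WT (SE 0.318, adjusted p = 0.0126), and by 1.06 in TA against WT (SE 0.321, adjusted p = 0.0424). The call in TA did not hold up well. It was lost in 15 of 20 alternative settings, including without any single WT library, any single TD library, TA replicate 1 (0.83, adjusted p = 0.149) or TA replicate 2 (0.98, adjusted p = 0.0856). Adjusted p without 1 WT library ran from 0.0539 to 0.106.

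Tbx1, a T-box transcription factor that marks beige cells in culture, lies on chromosome 16 from 18580979 to 18590671 on the minus strand. The WT libraries had 7.89, 5.26, 6.29 and 9.43 CPM. TA had 2.98, 7.07, 3.23 and 5.28 CPM, and TD had 3.75, 4.90, 5.48 and 3.40 CPM. Both mutants overlapped WT in single libraries. In TD it passed narrowly, with a fall of 0.71 on the log2 scale (SE 0.260, adjusted p = 0.0492), and this call was lost in 12 of 21 alternative settings. It was lost, among others, without WT replicate 4 (-0.56, adjusted p = 0.154), WT replicate 1 (-0.66, 0.117), WT replicate 3 (-0.77, 0.0571), TD replicate 4 (-0.61, 0.139), TD replicate 1 (-0.65, 0.108), TD replicate 2 (-0.77, 0.0672) or TA replicate 4 (-0.71, 0.0567). TA against WT, at -0.64 (SE 0.260, adjusted p = 0.133), did not pass. It passed without TA replicate 2 (-0.91, adjusted p = 0.0255), the library that also had the highest Kcnk3 and Dio2.

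**Figure D2:**
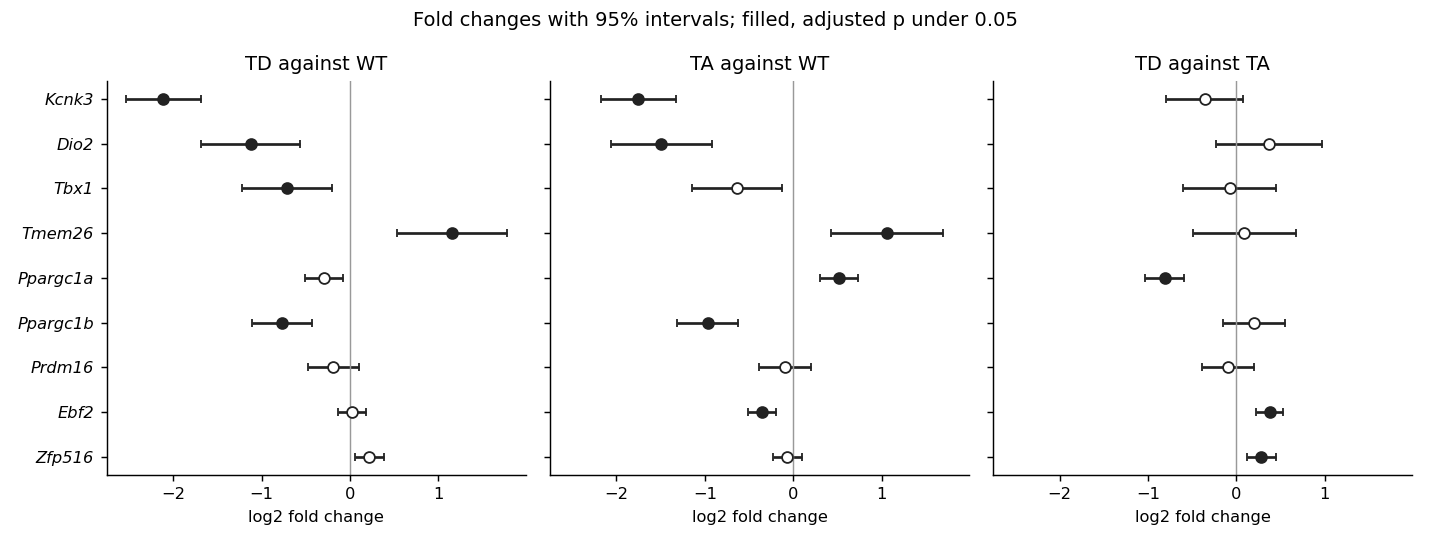
Log2 fold change (horizontal axis) of 9 genes in TD against WT, TA against WT and TD against TA, with 95% intervals and filled points for an adjusted p under 0.05. Kcnk3 fell by 2.11 in TD and 1.75 in TA, and Ppargc1a lay on opposite sides of 0 in the 2 mutants, although in TD against WT it did not pass. Otop1 is left out because its fitted fold against a genotype near 0 has no fixed size.

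The coactivators Ppargc1a and Ppargc1b, both of which dock on nuclear receptors to drive mitochondrial genes, moved in opposite directions in TA. Ppargc1a, the gene of PGC-1α, lies on chromosome 5 from 51454250 to 51567726 on the minus strand. Its levels were 11.8, 11.9, 10.6 and 10.9 CPM in WT. In TA they were 19.4, 15.1, 15.5 and 14.8 CPM, and in TD 8.57, 9.65, 9.26 and 9.32 CPM. The 3 genotypes did not overlap, with TA highest and TD lowest. Ppargc1a rose by 0.52 on the log2 scale in TA against WT (SE 0.109, adjusted p = 0.00533), that is 1.43-fold, and was lower by 0.81 in TD than in TA (SE 0.111, adjusted p = 0.000173). TD against WT, at -0.29 (SE 0.112), missed the threshold with an adjusted p of 0.0576, and passed without TA replicate 1 (adjusted p = 0.0406).

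Ppargc1b, the gene of PGC-1β on chromosome 18, fell in both mutants. Its levels were 12.2, 12.6, 15.01 and 22.9 CPM in WT, with replicate 4 well above the others. TA had 7.60, 8.79, 7.46 and 8.17 CPM, and TD had 9.31, 7.65, 9.85 and 10.0 CPM. All mutant libraries lay below all WT libraries. The fall was 0.97 on the log2 scale in TA (SE 0.175, adjusted p = 0.00181) and 0.77 in TD (SE 0.173, adjusted p = 0.00378). TD and TA differed by 0.20, with a 95% interval from -0.15 to 0.55 and an adjusted p of 0.476.

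A ratio of both coactivators within a library needs no scaling between libraries. Ppargc1a had 0.966, 0.941, 0.706 and 0.477 times the counts of Ppargc1b in the WT libraries, 2.55, 1.71, 2.08 and 1.81 times in TA, and 0.921, 1.26, 0.941 and 0.930 times in TD. Counts of Ppargc1a thus exceeded those of Ppargc1b in every TA library and in no WT library. Ppargc1a has 6.592 kb of annotated exon and Ppargc1b 3.99 kb, so equal counts do not mean equal levels. The log2 ratio was -0.43 ± 0.47 in WT, 1.01 ± 0.25 in TA and 0.0054 ± 0.22 in TD (SD, n = 4). TA exceeded WT by 1.44 and TD by 1.00, each with an exact two-sided permutation p of 0.0286, the smallest that 4 against 4 libraries can give (adjusted over 3 comparisons, 0.0429). TD against WT had a difference of 0.43 and an exact permutation p of 0.286. The ratio was taken up after the values of both genes had been seen. In TA against WT both genes were already without overlap, in opposite directions. Their ratio could then not overlap either, so that p-value adds no support to the results of the single genes.

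**Figure D3:**
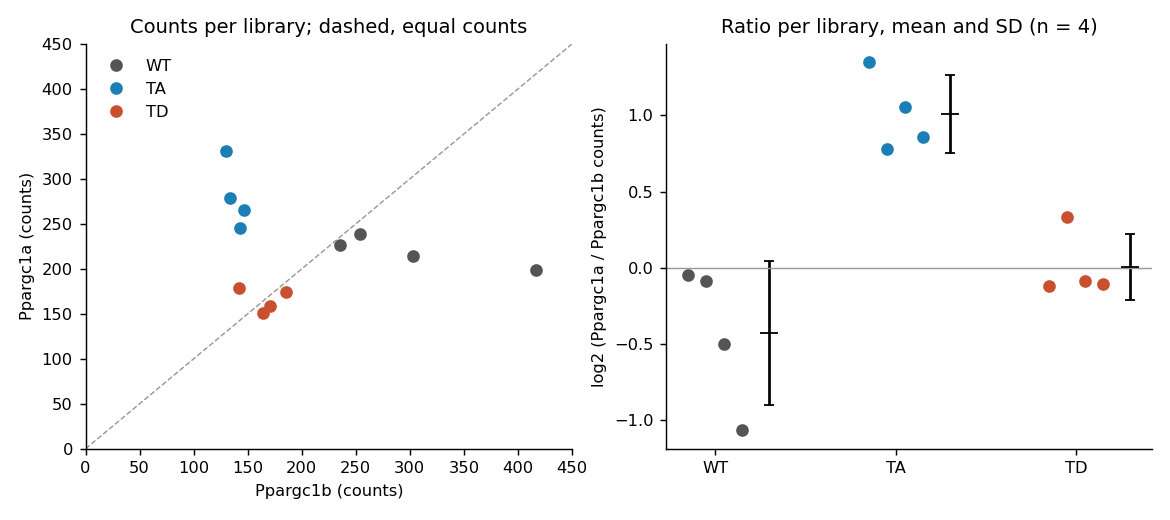
Left, counts of Ppargc1a (vertical axis) against counts of Ppargc1b (horizontal axis) per library, with a dashed line at equal counts. Equal counts are not equal levels, because the exon lengths differ. Right, the log2 ratio of both counts per library with mean and SD (n = 4), where the TA libraries lie from 0.78 to 1.35 and all WT libraries lie below 0.

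Of the other DNA-binding regulators, Prdm16 passed in no comparison and the called changes of Ebf2 and Zfp516 reached at most 0.37 on the log2 scale. Prdm16, the zinc finger coregulator that steers precursors toward the brown and beige fate, lies on chromosome 4 from 154316125 to 154636873 on the minus strand. It had 11.7, 8.19, 12.1 and 14.7 CPM in WT, 11.7, 11.6, 10.2 and 10.2 in TA, and 9.14, 10.7, 11.3 and 9.79 in TD. The WT libraries spanned those of both mutants. No difference passed, with -0.19 in TD against WT (95% interval -0.48 to 0.11, adjusted p = 0.374), -0.10 in TA against WT (-0.39 to 0.20, adjusted p = 0.752) and -0.09 in TD against TA (-0.39 to 0.20, adjusted p = 0.722). These intervals allow a fall of up to 0.48 on the log2 scale.

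Ebf2, an early B cell factor that marks brown and beige precursors, was lower in TA than in either other genotype. It lies on chromosome 14 from 67233292 to 67430918 on the plus strand. WT libraries had 60.9, 62.2, 65.4 and 66.9 CPM, TA libraries 53.3, 54.2, 47.8 and 44.5, and TD libraries 66.9, 66.1, 68.5 and 57.3. No TA library reached the lowest WT or TD library. Ebf2 fell by 0.35 on the log2 scale in TA against WT (SE 0.080, adjusted p = 0.0086) and was 0.37 higher in TD than in TA (SE 0.080, adjusted p = 0.00515). TD and WT differed by 0.02, with a 95% interval from -0.14 to 0.18 and an adjusted p of 0.878.

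Zfp516, a zinc finger protein that binds the Ucp1 promoter, lies on chromosome 18. Its levels were 52.5, 56.8, 64.5 and 64.2 CPM in WT, 55.2, 49.7, 60.8 and 61.7 in TA, and 67.2, 67.6, 71.6 and 70.4 in TD. TD was above all other libraries, and TA overlapped WT. It was 0.28 higher in TD than in TA on the log2 scale (SE 0.084, adjusted p = 0.0304). This call was lost without TA replicate 1 (adjusted p = 0.0715), TA replicate 2 (0.103), TD replicate 2 (0.0536), TD replicate 3 (0.0868) or TD replicate 4 (0.0768). TD against WT, at 0.22 (SE 0.084, adjusted p = 0.0613), did not pass, but 7 of 21 alternative settings called it. These included fits without TA replicate 2 (adjusted p = 0.0425) or WT replicate 3 (0.045) and the replicate block (0.0316).

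For TD against WT the members had a median log2 fold change of -0.24, beside 0.011 over all genes tested. For TA against WT these medians were -0.22 and -0.0056, and for TD against TA 0.0072 and 0.023. Libraries of TD and WT did not overlap for 6 members, when 32.2% of all genes tested did not overlap. Of the 6, 2 were higher and 4 lower in TD, beside 15.8% and 16.4% of all genes. For TA and WT this held for 7 members, 3 higher and 4 lower, against 13.6% of all genes, 7.71% higher and 5.85% lower. For TD and TA it held for 4 members, 2 higher and 2 lower, against 19.9% of all genes, 9.32% higher and 10.6% lower. Otop1 and Tmem26 entered the test through the mutants, so they add nothing to these medians and counts as evidence about the group.

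The other genes of the brown and beige program, 88 listed with the members left out, did not move as one either. Of 77 tested, 8 rose and 24 fell in TD against WT and 12 rose and 5 fell in TA against WT. TD exceeded TA in 3 and lay below it in 20. Their median log2 fold changes were -0.030, 0.074 and -0.040. Of all genes tested, 15.1% were called higher and 14.2% lower in TD against WT. For TA against WT these shares were 6.72% and 4.41%, and for TD against TA 7.33% and 9.37%. They also apply to the called counts of each list below. When libraries were scaled by library totals alone, 13 rose and 19 fell in TD against WT, and 11 were higher and 17 lower in TD than in TA. Scaling by the adipocyte markers, which shifts the median of all genes by 0.51 in TD against WT and 0.49 in TD against TA, turned these splits into 49 rises with 6 falls and 42 with 11.

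Brown fat effectors made up much of the fall in TD. This list holds genes of fat oxidation and heat production, and also some of lipid synthesis and secreted factors. Of 18 tested, none rose and 12 fell in TD against WT (median -0.59), 4 rose and 3 fell in TA against WT (median 0.15), and between the mutants TD had 1 higher and 11 lower (median -0.81). At an unadjusted p under 0.05, 2 rose in TD against WT, and DESeq2 called none. The general adipocyte markers fell as well, 10 of 12 in TD against WT (median -0.49) and 9 of 12 in TD against TA (median -0.52). Whether the effectors fell beyond them was not tested. Elovl3, a fatty acid elongase of brown fat, had 32.9 ± 11.01 CPM in WT, 50.4 ± 7.22 in TA and 7.51 ± 1.31 in TD (SD, n = 4). Its log2 change was -2.13 in TD and 0.61 in TA. Plin5, a lipid droplet protein that couples to mitochondria, fell by 1.94 in TD, and Cox7a1, a respiratory chain subunit, fell by 1.70 in TD and by 0.84 in TA. Ucp3, a mitochondrial carrier, rose by 0.96 in TA against WT, and Nrg4, a secreted factor of brown fat, by 0.81.

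Among 19 other beige markers tested, 3 rose and 5 fell in TD against WT, 7 rose and 3 fell in TA against WT, and between the mutants TD had 1 higher and 4 lower (medians 0.14, 0.23 and -0.051). Car4, called higher in TD against WT, and Cd40, at means of 0.257 and 0.203 CPM in WT, entered the test through the mutants. They add nothing to these counts and medians as evidence about the list. Slc27a1, a fatty acid transporter, had 296 ± 15.2 CPM in WT, 827 ± 60.9 in TA and 338 ± 24.9 in TD, and rose by 1.48 on the log2 scale in TA against WT (adjusted p = 1.58e-08). Mpzl2, a cell adhesion protein, fell by 3.06 in TA and by 1.61 in TD. Genes listed as beige markers thus moved in both directions within the same cultures, and which cells expressed them was not tested.

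Of 21 activating regulators tested, 3 rose and 6 fell in TD against WT, 1 rose in TA against WT, and TD had 4 below TA (medians -0.056, -0.052 and 0.0019). No activating regulator was called lower in TA against WT by edgeR, while 6 had an unadjusted p under 0.05 and DESeq2 called 3. None was called higher in TD than in TA, with 6 at an unadjusted p under 0.05 and 1 called by DESeq2. Ppara, a nuclear receptor of fat oxidation, fell by 0.71 and Esrra, a partner of the PGC-1 coactivators, by 0.67 in TD against WT, beside a fall of 0.58 for Pparg. The 1 gene that rose in TA was Thra, a thyroid hormone receptor, by 0.23. Of 20 repressors, 2 rose and 2 fell in TD against WT, none was called in TA against WT, and between the mutants TD had 1 higher (Foxp1, a forkhead factor, 0.35) and 2 lower (Zfp423, a zinc finger factor, -0.29, and Id1, -0.29). List medians were 0.042, 0.026 and 0.056. In TD against WT these were Mrtfa, an actin-regulated coactivator (0.47), and Rbl1, a retinoblastoma relative (0.35), which rose, and Id1, an inhibitor of helix-loop-helix factors (-0.34), and Rb1, the retinoblastoma gene (-0.30), which fell. Where edgeR's quasi-likelihood test called 0 repressors in TA, 1 higher and 1 lower had an unadjusted p under 0.05, and DESeq2 called 0.

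**Figure D4:**
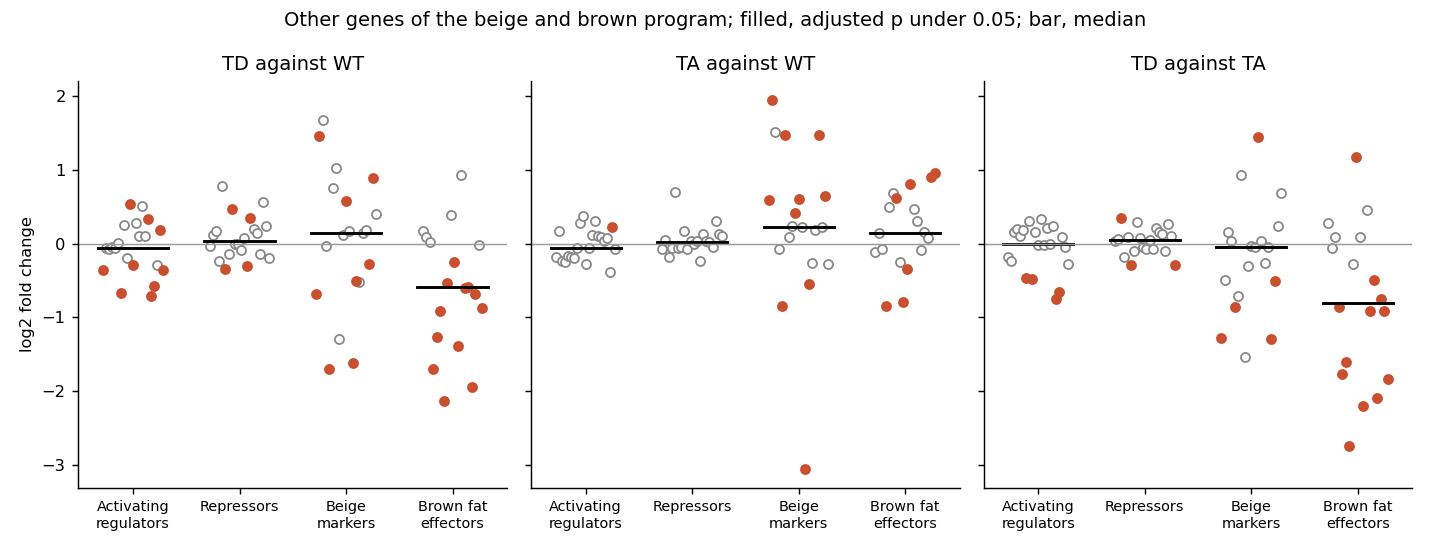
Log2 fold change (vertical axis) of the tested genes of 4 lists in TD against WT, TA against WT and TD against TA, with filled points for an adjusted p under 0.05 and a bar at each median. The median of the brown fat effectors was -0.59 for TD and 0.15 for TA, each against WT, while regulators and repressors centred near 0.

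Thyroid hormone action, the pathway that Dio2 feeds, was counted over 16 tested genes. Of these, 3 rose and 4 fell in TD against WT, 6 rose and 1 fell in TA against WT, and between the mutants TD had 2 higher and 5 lower (medians 0.020, 0.039 and -0.030). Dio3, which inactivates thyroid hormone, rose in both mutants, from 5.61 ± 0.745 CPM in WT to 8.29 ± 1.80 in TA and 9.36 ± 1.35 in TD, with adjusted p of 0.0376 and 0.00349. Thrsp, a thyroid hormone responsive gene of lipogenesis, rose by 0.90 in TA against WT, and Rxrg, a nuclear receptor partner, fell by 1.33 in TA and 0.96 in TD.

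Relatives of the members were followed as well. Of 17 tested EBF, PRDM, T-box and PGC-1 genes, 4 rose and none fell in TD against WT, 1 rose in TA against WT, and between the mutants TD had 3 higher and 1 lower (medians 0.25, 0.037 and 0.20). Tbx15, a T-box factor of fat and muscle development, rose by 0.53 in TD and by 0.47 in TA, and was the 1 gene called in TA. In that comparison 3 of the relatives were lower at an unadjusted p under 0.05, and DESeq2 called 1 of them. Of 15 two-pore potassium and otopetrin channels, 5 had enough counts to test. Kcnk2 was the 1 called, with a rise of 1.76 in TD against WT from 0.256 ± 0.184 to 0.888 ± 0.199 CPM (list medians 0.18, -0.098 and 0.75). Kcnk2 too entered the test through the mutants. Otop2 had at most 2 counts in any library and Otop3 had none.

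Genes whose pattern was most like that of 3 members were found by Pearson correlation of log2 CPM over the 12 libraries, among 15107 genes, as a description in which all genes share the same libraries and depth. For Otop1 these were Slc27a1 (r = 0.975), Rnf145, a ubiquitin ligase of lipid metabolism (0.971), and Aass, an enzyme of lysine breakdown (0.969). For Ppargc1a they were Stx17, a syntaxin (0.954), Gpd1, a glycerol 3-phosphate dehydrogenase (0.950), and Tmem86a, a lysoplasmalogenase (0.949). Gpd1 had 465 CPM in WT, 1240 in TA and 335 in TD. For Prdm16 they were Traf2, a signaling adaptor (0.883), Dhx40, a helicase (0.878), and Zswim1, a zinc finger protein (0.865). Traf2 differed little between genotypes, with 23.1 CPM in WT, 22.1 in TA and 21.7 in TD. Whether the highest of 15107 correlations over 12 libraries exceed those arising by chance was not tested.

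Markers of other cell types moved with genotype beside these results. In TD against WT, 14 of 14 tested skeletal muscle markers rose and none fell, and in TA against WT 7 rose. Several of them, such as Myog at 0 and Actn2 at up to 2 counts in WT, entered the test through the mutants. For those a fall from WT could hardly have been called. The summed level of the muscle markers was 6.74 to 15.7 CPM in WT, 23.6 to 90.9 in TA and 22.4 to 348.7 in TD. The muscle regulators Myod1 and Myf5 were at 0 in all WT libraries and reached 12 and 5 counts in TD. Of 11 preadipocyte and fibroblast markers 9 rose in TD and 7 in TA, with sums of 9714 to 13127 CPM in WT, 11210 to 19939 in TA and 16497 to 24809 in TD. Of 12 adipocyte markers 10 fell in TD against WT, with none higher, and 2 rose and 1 fell in TA, with sums of 17781 to 20636 CPM in WT, 17272 to 23885 in TA and 11772 to 14109 in TD. Endothelial markers rose in 7 of 8 cases in TD and 4 in TA, from 28.3 to 60.5 CPM in WT to 52.5 to 97.7 in TA and 112 to 142 in TD. Smooth muscle and pericyte markers rose in 5 of 8 cases in TD, with 1 fall, and 4 in TA. No macrophage marker of 8 was called against WT by edgeR or DESeq2, with 2 higher in TD and 4 lower in TA at an unadjusted p under 0.05, and 3 were called higher in TD than in TA. Schwann cell and neuron markers rose in 2 of 7 cases and epithelial markers in 2 of 3 in TD, and in TA edgeR and DESeq2 called none, with 1 epithelial marker at an unadjusted p under 0.05. The epithelial markers Krt8 and Krt18, at a mean of 0.149 and 0.135 CPM in WT, also entered the test through the mutants.

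The share of counts from mitochondrially encoded genes moved in the same way as Kcnk3, Dio2 and Ppargc1b, from 4.92% to 5.88% in WT to 2.74% to 4.50% in TA and 2.86% to 3.57% in TD, with no mutant library reaching WT, and its part in their falls and in the rise of Tmem26 was not tested.

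In bulk RNA, fewer cells of a type and less RNA per cell cannot be told apart. The part of these cell types in the differences of the members was not tested. When libraries were scaled by the adipocyte markers, 4 members were called higher and 1 lower in TD against WT, where 60.2% of all genes passed as higher and 1.34% as lower. For TA against WT 1 was up and 3 were down, beside 2.86% and 1.88% of all genes. For TD against TA 4 were up and 1 was down, beside 58.6% and 1.36%. Under this scaling Kcnk3 still fell in both mutants, Dio2 and Ppargc1b still fell in TA but not in TD (adjusted p = 0.089 and 0.251), and Ppargc1a in TA missed the threshold (adjusted p = 0.0632). Ppargc1a in TD against TA (-0.35, adjusted p = 0.0731), Ebf2 (-0.33, 0.155) and Tmem26 (1.06, 0.0882) in TA against WT and Tbx1 in TD against WT (-0.21, 0.432) also lost their calls. Calls gained were Otop1 (3.46, adjusted p = 0.0234), Ebf2 (0.51, 0.00323) and Zfp516 (0.71, 0.00217) in TD against WT, and Dio2 (0.88, 0.0293) and Ppargc1b (0.69, 0.0107) in TD against TA. Without the 2 TD libraries highest in muscle markers, 3 members were called in TD against WT, Kcnk3 (-1.91), Dio2 (-1.44) and Ppargc1b (-0.88), all lower, when 5.34% of all genes were called higher and 4.33% lower, and Tmem26 missed the threshold (1.25, adjusted p = 0.0714). The 2 libraries left out were also the highest of TD in preadipocyte and fibroblast markers and the lowest in adipocyte markers.

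**Figure D5:**
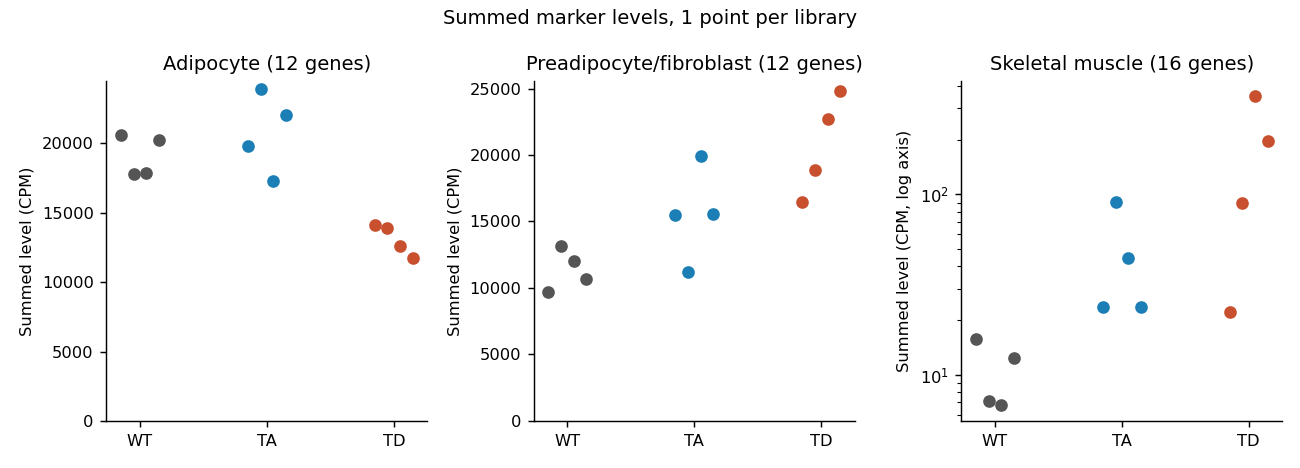
Summed CPM (vertical axes, logarithmic for muscle) of adipocyte, preadipocyte and fibroblast, and skeletal muscle markers, 1 point per library. Adipocyte markers were lowest in the 4 TD libraries, at 11772 to 14109 CPM, and the muscle sum of every mutant library was above the highest WT library, at 15.7 CPM.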

How the data were processed

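The authors sequenced total RNA of 12 cultures, 4 per genotype by the labels, and deposited whole-number read counts per gene, unnormalized, as 1 table and again per library. Both forms were equal. Submitters' processing notes name bcl2fastq 2.17.1.14, cutadapt 1.9.1, HISAT2 2.0.1 and HTSeq 0.6.1 with build GRCm38. The strand setting is not given in the sources used here, so reads of antisense partners cannot be told apart. Positions and exon lengths came from GENCODE M21 (99.8% of identifiers matched).

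The members, lists and tests were chosen with earlier results of these data known. Named genes are the members, at most the 3 largest rises and falls called per list, lists of up to 5 calls, Pparg, and the 3 genes most correlated with Otop1, Prdm16 and Ppargc1a. Some others are named because they entered the test through the mutants.

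In R 4.3.3, edgeR 4.0.16 kept 15117 genes by filterByExpr (minimum count 10, minimum total 15), applied TMM normalization (factors 0.957 to 1.04) and fitted a quasi-likelihood model to all 12 libraries, two-sided, with Benjamini-Hochberg adjustment over all genes tested. SE is the absolute log2 fold change divided by the square root of F. log2 CPM used a prior count of 2. Ratios of counts carry exact 95% intervals for counting error only. The steps were tested on simulated data. Alternatives were DESeq2 1.42.0, other scalings and filters, single libraries left out, a replicate block, fits of 2 genotypes and a fold threshold. A fit without the 2 TD libraries with the most muscle marker RNA was chosen after seeing the data. Replicates were distinct libraries, with chi-square per degree of freedom from 4.89 to 37.7 over 18 pairs.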

Additional observations from a re-analysis of the deposited data

Results flagged for a closer look

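In all, 30 sets of 4 libraries, 1 per member and genotype, were checked for a library far from the other 3, a check that picks out about 1 set in 20 by chance. Of these, 2 stood out. Ppargc1a in TA replicate 1 was at 19.4 CPM, when the nearest other TA library was at 15.5, and the rise against WT stayed below an adjusted p of 0.05 without that library. Otop1 in WT replicate 2 was at 0.0497 CPM, which is 1 count where the other 3 WT libraries had 0.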

How the results depend on the processing

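Across the alternative settings, 551 of 623 fold changes of members kept their direction and their side of the threshold, 39 lost and 19 gained a call, and 14 reversed. Requiring at least 10 counts in every library gave no value for Otop1 and Tmem26. Scaling by adipocyte markers gave 4 members in TA against WT, and 55 and 53 program genes in TD against WT and TD against TA. Of 15117 genes tested, it called 716 in TA against WT, 9303 in TD against WT and 9071 in TD against TA. This scaling reversed Prdm16 (0.32) and Ppargc1a (0.20) in TD against WT, and Kcnk3 (0.15), Prdm16 (0.38) and Tbx1 (0.44) in TD against TA. Library totals alone reversed Tbx1 in TD against TA (0.0030) and called 2840 genes higher and 1558 lower in TD against WT. Above an absolute log2 fold change of 1, 3, 4 and 1 members and 7, 4 and 10 program genes were called in TD against WT, TA against WT and TD against TA. The share of all genes called above that fold is not given here, so these counts cannot be set against it. Without the 2 TD libraries highest in muscle markers, 3 members and 15 program genes were called in TD against WT and 14 program genes in TD against TA, and Otop1 reversed in TD against WT (-1.53), with no TD count left. In that fit 1516 and 634 of 15673 genes tested were called in these 2 comparisons. Leaving out 1 library gave 4 to 6, 6 to 7 and 3 to 4 members and 23 to 35, 11 to 18 and 17 to 25 program genes in the 3 comparisons, with 11 without WT replicate 3. Of the 15344 to 15431 genes tested in these fits, 3121 to 4705, 1160 to 1939 and 1422 to 3526 were called. Reversals there were Prdm16 in TA against WT (0.034, range -0.23 to 0.034), Ebf2 in TD against WT (-0.0091, range -0.0091 to 0.074), and in TD against TA Tbx1 (0.20, 0.0043 and 0.026, range -0.23 to 0.20) and Tmem26 (-0.028 and -0.056, range -0.056 to 0.32), none of them called. The cause of these changes was not tested.

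Same-numbered libraries did not pair. Their deviations correlated from -0.237 to 0.196, 2 of 12 pairs exceeded 0.1, and 2 of 12 libraries were most alike to their own number. With a replicate block 5, 6 and 4 members were called in the 3 comparisons, with Zfp516 gained in TD against WT (0.22, adjusted p = 0.0316) and Tbx1 (-0.72, adjusted p = 0.0675) and Tmem26 in TA (1.04, adjusted p = 0.0643) lost, and 29, 16 and 25 program genes. Of 15117 genes tested, 4246, 1560 and 2488 were called with the block. DESeq2 called Otop1 in TD against WT (3.27, adjusted p = 0.0212). Otop1, with 11 TD counts and 1 WT count, and Tmem26, with 9 to 31 counts per library, are limited by depth.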

Other observations

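Primers that the study lists for Prdm16, of 22 and 23 bases, matched no annotated mouse transcript exactly, and the closest stretch in a Prdm16 transcript differed from each of them at 1 base. The listed primers for Otop1, Dio2 and Ppargc1a each matched transcripts of their own gene exactly and of no other gene.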
